A study of Callithrix jacchus with 4 samples.

Results

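Radial glia are the stem cells of the developing forebrain, and 9 genes that mark them and their daughter progenitors were followed in the brains of newborn FMR1 mutant marmosets. The genes were VIM, NES, SOX2, PAX6, HES1, HES5, FABP7, HOPX and EOMES, taken by symbol as 9 of the 35205 genes in the deposited count table. All 9 had a row and all 9 passed the filter on low counts, which left 16956 genes for testing.

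Brain RNA was sequenced at postnatal day 5 from common marmosets, Callithrix jacchus, in 2 libraries from FMR1 mutant animals and 2 from wild-type animals. The mutants were made with CRISPR/Cas9, and FMR1 encodes FMRP, which binds mRNAs in neurons and controls how they are translated. The study's design describes forebrain samples that include cortex, striatum and hippocampus, while the label of each library says brain only. The labels do not give the FMR1 allele, the sex or the litter of the animals, nor do they say that the libraries of a group come from different animals. The p-values below therefore rest on the spread between these libraries, pooled largely over all genes, and that spread may be partly technical.

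Radial glia line the ventricle, span the wall of the forebrain with a long process, and produce neurons and later astrocytes. Intermediate filaments stiffen the process, Notch signalling through the HES repressors keeps the cells from becoming neurons, and SOX2 and PAX6 keep their progenitor identity. Around birth many radial glia turn into astrocytes or ependymal cells, and several of the same genes stay on in astrocytes, in the cells of vessel walls or in some neurons. In RNA from whole tissue, fewer cells of a type and less RNA per cell cannot be told apart.

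The libraries held between 12331639 and 13455702 counts and were alike in depth in both groups. FMR1 itself was counted 1062 and 1603 times in FMR1 mutant replicates 1 and 2, against 1144 and 966 times in wild-type replicates 1 and 2. Its groups overlapped, and its log2 fold change of 0.28 did not pass (adjusted p = 0.445). Markers of 2 other tissues stood out in single libraries. The thalamic factor TCF7L2 was counted 118 and 121 times in the mutant libraries, against 1272 and 139 times in wild-type replicates 1 and 2. TTR, the main secreted product of the choroid plexus, was counted 1244 and 87 times in FMR1 mutant replicates 1 and 2, against 8 and 89 times in the wild-type libraries. The hindbrain genes HOXA2, HOXB3, HOXB4 and EN1 were at 0 in all 4.

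Of the 9 genes, 1 rose in the mutant libraries and 0 fell. The riser was VIM, at 1.36 times its wild-type level, and it stood close to the threshold. The call is an adjusted p under 0.05 by edgeR's quasi-likelihood test over all genes tested, which 2.23% of all genes passed, 0.661% as higher and 1.57% as lower. Levels are in CPM, counts scaled to the size of each library, after TMM scaling of the libraries, and fold changes are FMR1 mutant over wild-type. At an unadjusted p under 0.05 stood 2 of the 9, VIM and HOPX, against 13.4% of all genes. The same 2 were the members whose groups did not overlap in CPM, both higher. Among all genes 43.1% did not overlap either (21.4% higher and 21.8% lower), so a count of 2 is no result about the set. The median log2 fold change of the 9 was 0.10, beside -0.004 for all genes tested, with 5 members above 0 and 4 below.

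**Figure D1:**
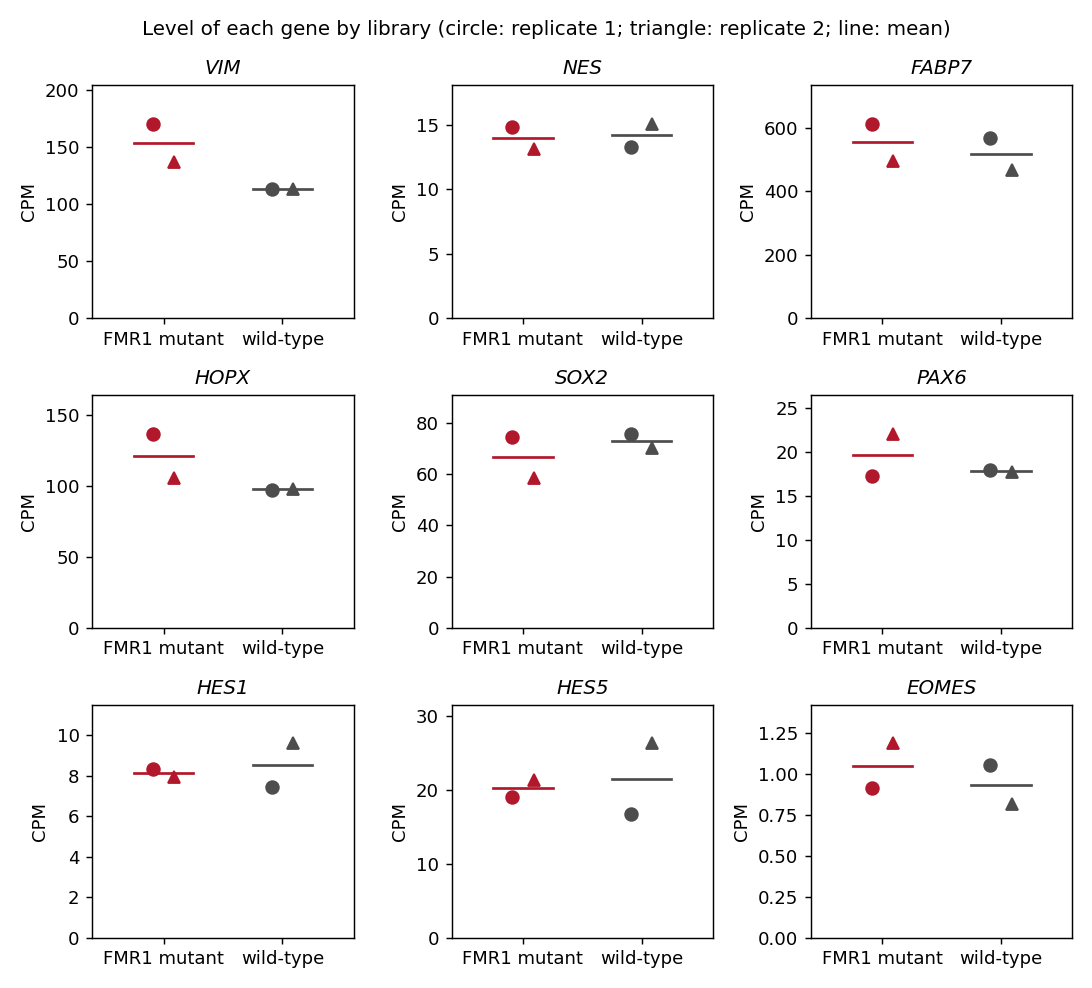
Level of each gene (CPM, y axis from 0) in the FMR1 mutant libraries (red) and the wild-type libraries (grey); circles are replicate 1, triangles replicate 2 and lines the mean of each group. VIM and HOPX are the panels in which both mutant libraries lie above both wild-type libraries, and in both of them the wild-type points nearly coincide while FMR1 mutant replicate 1 lies highest.

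VIM encodes vimentin, an intermediate filament protein of radial glia and immature astrocytes that is also made in vessel walls, meninges and ependyma. It was counted 2231 and 1849 times in FMR1 mutant replicates 1 and 2, against 1494 and 1393 times in the wild-type libraries. These counts gave 170.3 and 137 CPM in the mutant libraries and 112.7 and 113.4 CPM in the wild-type libraries. Both mutant libraries were thus above both wild-type libraries. The mutant libraries differed from each other by 1.24 times, and the wild-type libraries by 1.01 times. The mean was 154 ± 23.4 CPM in mutant and 113 ± 0.505 CPM in wild-type libraries (SD, n = 2 each). VIM passed at a log2 fold change of 0.44 (SE 0.12, 95% interval 0.19 to 0.69) and an adjusted p of 0.0481 by edgeR.

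That call rested on the choice of test, and the size of the change leaned on FMR1 mutant replicate 1. VIM did not pass by DESeq2 (adjusted p = 0.0746), by limma-voom (0.0692) or in edgeR with robust = FALSE (0.0591), and 0 of the 9 genes passed in any of those 3 (DESeq2 called 1.38% and limma-voom 2.05% of the genes they tested). Without FMR1 mutant replicate 1, the library with high TTR, its log2 fold change was 0.28 (adjusted p = 0.523 by edgeR). Without wild-type replicate 1, the library with high TCF7L2, it was 0.44, and without wild-type replicate 2 it was 0.45. Both are close to the value with all 4 libraries. The SE was 0.16 in both of these fits, which leave 1 wild-type library. A call lost in them therefore does not show that VIM leaned on either wild-type library. VIM was at 0.59 without FMR1 mutant replicate 2. The sign was positive in each of these fits.

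NES encodes nestin, the large filament protein that assembles together with vimentin in neural progenitors and is also made in growing vessels. It stood at 14.8 and 13.1 CPM in the mutant libraries, against 13.3 and 15.1 CPM in the wild-type libraries. The groups overlapped fully, with the lowest value in a mutant and the highest in a wild-type library. Its log2 fold change was -0.02 (95% interval -0.42 to 0.38, adjusted p = 0.984 by edgeR), an interval that spans 0.750 to 1.30 times the wild-type level.

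FABP7, also called brain lipid-binding protein, carries fatty acids in radial glia and in astrocytes. It had the most counts of the 9 genes in every library. It was counted 8038 and 6686 times in the mutant libraries and 7523 and 5752 times in the wild-type libraries, or 614 and 496 CPM against 567 and 468 CPM. The groups overlapped, with replicate 1 above replicate 2 in both. The log2 fold change of 0.10 (95% interval -0.15 to 0.35, adjusted p = 0.799 by edgeR) had one of the narrowest intervals of the set. A change of over 1.27 times upward or below 0.901 times lies outside that interval.

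HOPX encodes a small homeodomain protein that does not bind DNA itself and is used in primates as a marker of outer radial glia, the progenitors that sit away from the ventricle. It was counted 1791 and 1422 times in FMR1 mutant replicates 1 and 2, against 1288 and 1202 times in the wild-type libraries. This gave 136.7 and 105.5 CPM in the mutant libraries and 97.2 and 97.9 CPM in the wild-type libraries. Both mutant libraries were higher, and replicate 1 was the further of them. HOPX, at 0.31 on the log2 scale (SE 0.13, 95% interval 0.05 to 0.57), missed the threshold (adjusted p = 0.248 by edgeR). It was 0.11 without FMR1 mutant replicate 1 and 0.49 without FMR1 mutant replicate 2 (adjusted p = 0.0692 by edgeR).

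SOX2 encodes a transcription factor that keeps neural stem cells undifferentiated and is also present in astrocytes. It stood at 74.6 and 58.5 CPM in FMR1 mutant replicates 1 and 2, against 75.8 and 70.0 CPM in the wild-type libraries. Mutant replicate 1 lay within the wild-type range and mutant replicate 2 below it. The log2 fold change was -0.13 (95% interval -0.41 to 0.14, adjusted p = 0.739 by edgeR).

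PAX6 encodes a paired-box transcription factor of dorsal radial glia that is also found in some mature neurons. It stood at 17.2 and 22.1 CPM in the mutant libraries, against 17.9 and 17.7 CPM in the wild-type libraries. Here it was mutant replicate 2 that lay highest, and mutant replicate 1 lowest of all 4. The log2 fold change was 0.14 (95% interval -0.22 to 0.51, adjusted p = 0.807 by edgeR). SOX2 and PAX6, which mark overlapping populations, thus had values of opposite sign, neither of which passed.

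HES1 and HES5 encode repressors that Notch signalling switches on and that block neuronal differentiation. HES1 stood at 8.32 and 7.94 CPM in the mutant libraries, between the 7.47 and 9.61 CPM of the wild-type libraries. HES5 stood at 19.1 and 21.4 CPM in the mutant libraries, again between the 16.8 and 26.3 CPM of the wild-type libraries. For both genes the wild-type libraries differed more from each other (by 1.29 times for HES1 and 1.57 times for HES5) than the mutant libraries did (1.05 and 1.12 times). The log2 fold changes were -0.07 for HES1 (95% interval -0.56 to 0.42) and -0.09 for HES5 (95% interval -0.48 to 0.30), with adjusted p of 0.9503 and 0.908 by edgeR.

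EOMES encodes the T-box factor TBR2, which marks intermediate progenitors, the dividing daughters of radial glia that make neurons. It was barely detected, with 12 and 16 counts in the mutant libraries and 14 and 10 counts in the wild-type libraries. The exact 95% Poisson interval of a single library, which covers counting error only, ran from 4.80 to 18.4 counts at the lowest (wild-type replicate 2) and from 9.14 to 26.0 at the highest (mutant replicate 2). The log2 fold change of 0.17 had a 95% interval of -0.99 to 1.32 (adjusted p = 0.949 by edgeR), or 0.503 to 2.5 times the wild-type level. A 2-fold rise lies inside that interval.

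**Figure D2:**
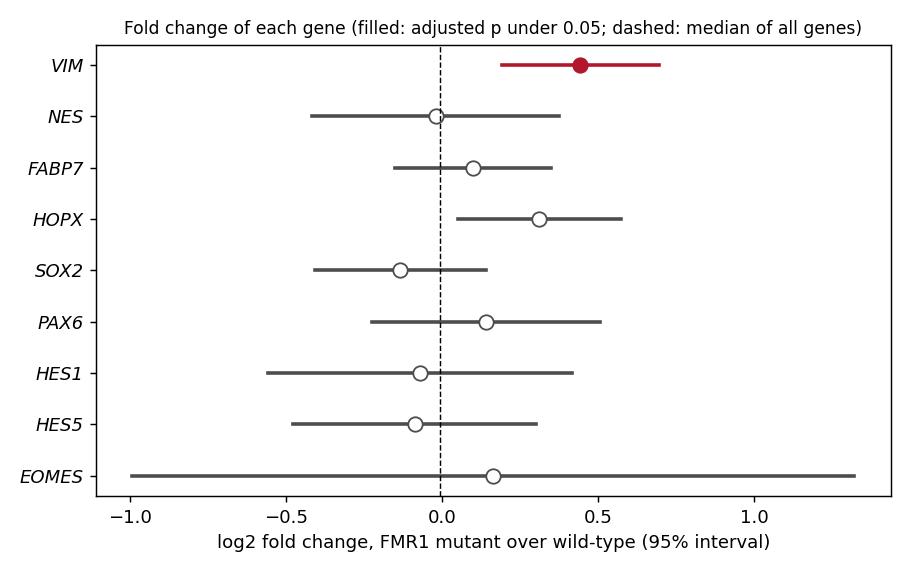
Log2 fold change (x axis, FMR1 mutant over wild-type) of each of the 9 genes with its 95% interval from the edgeR fit; the filled red point passed an adjusted p of 0.05 and the dashed line is the median of all genes tested, at -0.004. The VIM and HOPX intervals lie above 0, and the EOMES interval is the widest, from -0.99 to 1.32.

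The 9 genes did not move as a block from library to library. FMR1 mutant replicate 1 was the highest library for VIM, HOPX and FABP7. Mutant replicate 2 was the highest for PAX6 and EOMES, and the lowest for SOX2 and NES. Wild-type replicate 2 was the highest for NES, HES1 and HES5. Together the genes took 0.105% and 0.0864% of all counts in the mutant libraries and 0.0910% and 0.0816% in the wild-type libraries, and FABP7 made up most of that sum. With 1 library left out at a time the median of the set ranged from -0.01 (without FMR1 mutant replicate 1) to 0.15 (without wild-type replicate 1). VIM and HOPX kept a positive sign in all 4 such fits, HES5 ranged from -0.38 to 0.27, and NES, SOX2, PAX6, HES1, FABP7 and EOMES also changed sign in at least 1 of them.

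**Figure D3:**
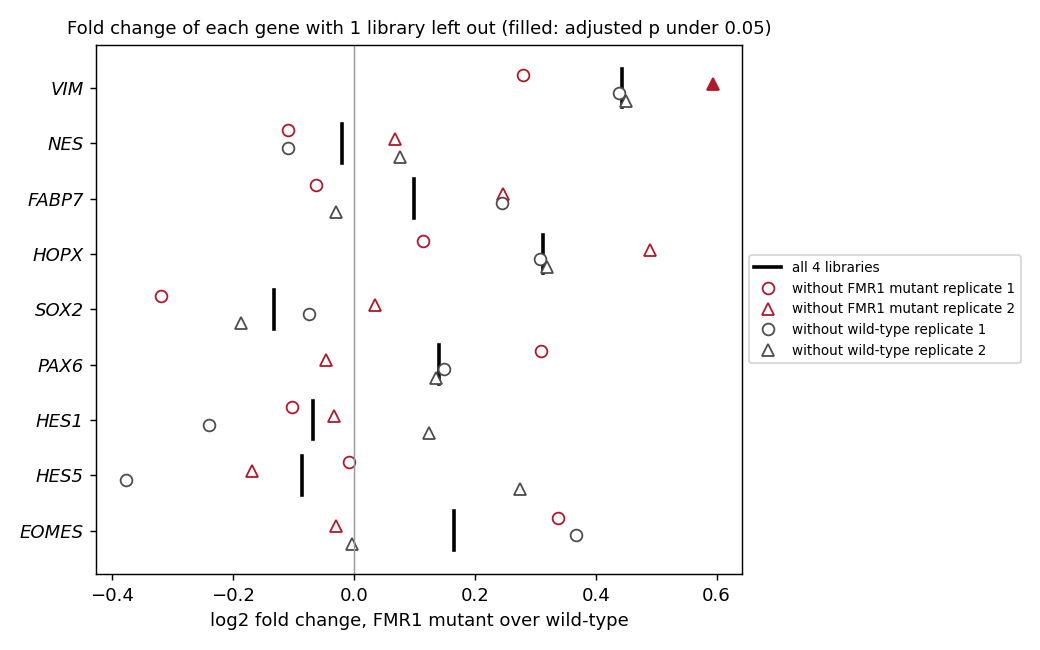
Log2 fold change of each gene (x axis, FMR1 mutant over wild-type) with all 4 libraries (black bar) and with 1 library left out (symbols; filled where the adjusted p was under 0.05). The filled symbol is VIM without FMR1 mutant replicate 2, at 0.59; leaving out FMR1 mutant replicate 1 pulls VIM to 0.28 and HOPX to 0.11.

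Ratios of 2 genes within a library do not depend on how libraries are scaled. Of the 36 pairs among the 9 genes, 10 had ratios that did not overlap between the groups. The 43.1% of all genes given above is for CPM of single genes, an unlike measure. The share among pairs of other genes was not computed, so the count is no result about the set. The ratios are given as a description. There were 2.28 and 2.35 VIM counts per SOX2 count in the mutant libraries, against 1.49 and 1.62 in the wild-type libraries. HOPX gave 1.83 and 1.80 counts per SOX2 count in the mutant libraries, against 1.28 and 1.40 in the wild-type libraries. In these ratios the mutant libraries lay close together, although their CPM of VIM, HOPX and SOX2 each differed by over 1.2 times. VIM was also higher relative to NES, with 11.5 and 10.4 counts per NES count in mutant and 8.49 and 7.53 in wild-type libraries. FABP7 to SOX2 did not overlap either, at 8.23 and 8.49 in mutant and 7.49 and 6.69 in wild-type libraries. HES5 to HES1 did not separate the groups, with 2.29 and 2.69 in mutant and 2.24 and 2.74 in wild-type libraries. The pairs share genes and libraries and were not tested.

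Markers of other cells that make vimentin were set beside VIM as summed CPM of each list. The 12 ependymal and choroid plexus markers summed to 148 and 44.0 CPM in FMR1 mutant replicates 1 and 2, against 48.3 and 52.6 CPM in the wild-type libraries. Of that list 9 were tested, 0 passed and CCDC153 was at 0 in every library; most of the excess in mutant replicate 1 was TTR. The ependymal factor FOXJ1 was counted 176 and 141 times in the mutant libraries, against 90 and 138 times in the wild-type libraries (log2 fold change 0.41, adjusted p = 0.480 by edgeR). The folate receptor FOLR1 was lower without overlap, with 40 and 32 counts in mutant and 71 and 44 counts in wild-type libraries (log2 fold change -0.72, adjusted p = 0.354 by edgeR). Over the list, 4 genes were above 0 and 5 below, with a median of -0.11, which was -0.03 without wild-type replicate 2. Their part in the VIM result was not tested.

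Markers of vessels, meninges and microglia were summed in the same way. The 14 endothelial markers summed to 324 and 318 CPM in mutant and 326 and 365 CPM in wild-type libraries, with 0 passing. The 10 mural cell markers summed to 182 and 186 CPM in mutant and 216 and 205 CPM in wild-type libraries. Of these 9 were tested and 0 passed, with a median of -0.21, or -0.24 without wild-type replicate 2. The 10 meningeal and perivascular fibroblast markers summed to 364 and 332 CPM in mutant and 329 and 469 CPM in wild-type libraries, and 0 passed. The median of these fibroblast genes was -0.02 with all 4 libraries. It was -0.31 without wild-type replicate 1, 0.15 without FMR1 mutant replicate 2 and 0.37 without wild-type replicate 2. The microglial list of 12 summed to 187 and 128 CPM in mutant and 214 and 228 CPM in wild-type libraries, and 3 of its members (LAPTM5, CSF1R and CX3CR1) fell. The median of the microglial list was -0.40, and -0.80 without FMR1 mutant replicate 1, where 4 fell. Without FMR1 mutant replicate 2 none of the 12 passed by edgeR, and without wild-type replicate 2 CX3CR1 did not (adjusted p = 0.0735 by edgeR). Both mutant sums lay below both wild-type sums for the mural and microglial lists. The endothelial sums were also lower but nearly met, at 324 CPM in a mutant and 326 CPM in a wild-type library. Of the 14 endothelial genes 5 were above 0 and 9 below. The fibroblast sums overlapped. How often sums of other gene lists separate the groups was not computed. The part of these cells in the VIM result was not tested.

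**Figure D4:**
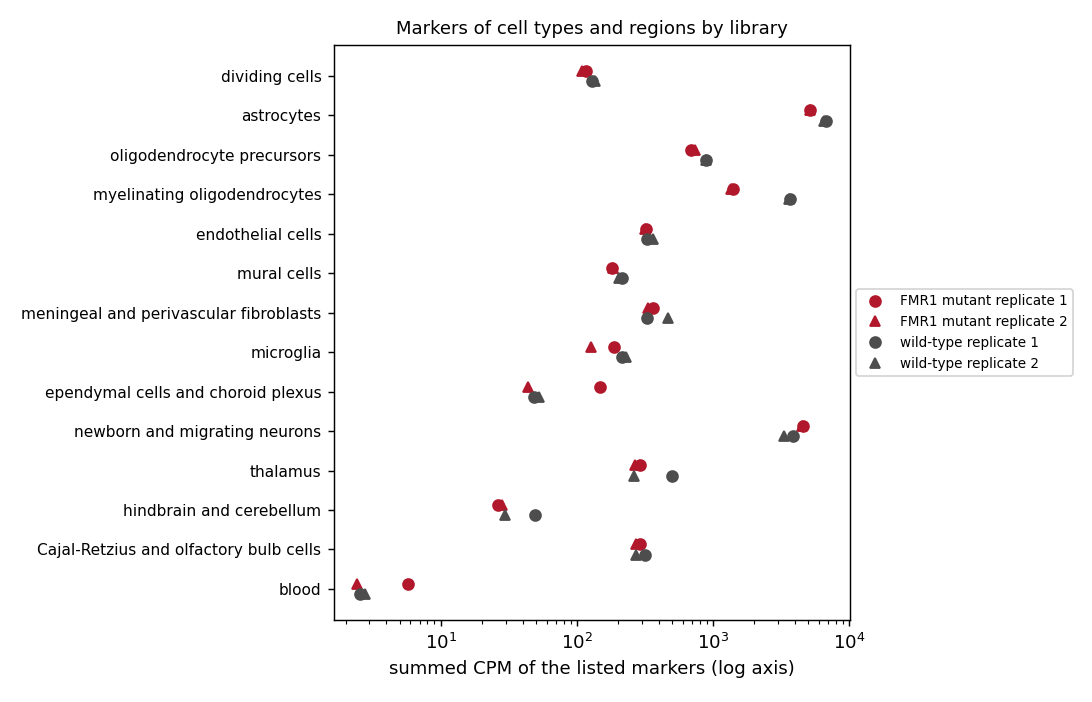
Summed CPM (x axis, log scale) of the markers of each cell type or region in the FMR1 mutant (red) and wild-type (grey) libraries; circles are replicate 1 and triangles replicate 2. The ependymal and choroid plexus list stands high in FMR1 mutant replicate 1 (148 CPM) and the thalamus list in wild-type replicate 1 (502 CPM), while the astrocyte list is lower in both mutant libraries.

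Astrocytes arise from radial glia and share many of these genes. All 18 astrocyte markers had a log2 fold change below 0, with a median of -0.30, and 3 of them fell. SLC1A2, the main glutamate transporter, fell by 0.61 (SE 0.11), the secreted chaperone CLU fell by 0.51 (SE 0.11) and the sodium pump subunit ATP1B2 fell by 0.47 (SE 0.12) on the log2 scale. ATP1B2 did not pass in 3 of the 4 fits with a library left out, those without FMR1 mutant replicate 1, FMR1 mutant replicate 2 or wild-type replicate 1 (adjusted p = 0.120, 0.119 and 0.434 by edgeR). The list summed to 5184 and 5178 CPM in mutant and 6807 and 6509 CPM in wild-type libraries. GFAP, the filament protein of mature astrocytes that joins vimentin there, was counted 10514 and 12542 times in mutant and 16426 and 12731 times in wild-type libraries. Its log2 fold change of -0.39 (SE 0.12) did not pass (adjusted p = 0.0653 by edgeR). In each library there were thus 0.212 and 0.147 VIM counts per GFAP count in FMR1 mutant replicates 1 and 2, against 0.0910 and 0.109 in the wild-type libraries, a pair singled out after its values were seen.

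Among the 13 other intermediate filament and lamin genes, 10 were tested, 1 rose and 3 fell, with a median log2 fold change of -0.19. All 4 that changed were neuronal filament genes. INA, the alpha-internexin of young neurons, rose by 0.46 (adjusted p = 0.0218 by edgeR). The neurofilament subunits NEFH, NEFL and NEFM fell by 0.72, 0.49 and 0.48 on the log2 scale. All 4 also passed by DESeq2 (adjusted p of 0.0133 or less) and by limma-voom (0.0231 or less). None of these 4 calls held in every fit with 1 library left out, and without wild-type replicate 1 INA rose while 0 of the 3 neurofilament genes passed. SYNM, a filament protein that joins vimentin and nestin, was at -0.19 (adjusted p = 0.652 by edgeR).

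Most genes known from outer radial glia had values below 0, where HOPX was above it. Of 14 listed, all tested, 0 passed by edgeR, 12 had a log2 fold change below 0 and 2 above, and the median was -0.21. That median was -0.15 without FMR1 mutant replicate 2 and -0.26 without wild-type replicate 2. PTPRZ1, a receptor phosphatase, was at -0.34 (SE 0.12, adjusted p = 0.126) and the growth factor BMP7 at -0.40 (SE 0.17, adjusted p = 0.284 by edgeR). FAM107A was at -0.14, the matrix protein TNC at -0.04 and MOXD1 at 0.02, and at an unadjusted p under 0.05 stood 4 of the 14, all lower. Of all 16956 genes tested, 8598 were below 0 and 1314 were lower at an unadjusted p under 0.05. Astrocytes also express several of these genes.

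Other transcription factors of radial glia had a median of 0.14, with 14 of 23 tested above 0 and 9 below, and 0 passed by edgeR. At an unadjusted p under 0.05 stood 5, all higher, as did 956 of all 16956 genes tested. The groups did not overlap in CPM for 9 genes that were higher and 5 that were lower, beside 21.4% and 21.8% of all genes. LHX2, which sets cortical identity, was at 121 ± 6.06 CPM in mutant and 98.3 ± 1.21 CPM in wild-type libraries (SD, n = 2 each), a log2 fold change of 0.30 (adjusted p = 0.217 by edgeR). The cortical homeobox gene EMX1 was at 0.34 (adjusted p = 0.292 by edgeR). SOX1, a close relative of SOX2, was at 0.40 (adjusted p = 0.299), EMX2 at 0.36 and MEIS2 at 0.27. SOX9, which drives glial fate, was at -0.07. The 5 lower without overlap were SOX21 (-0.27), SALL3 (-0.24), ETV5 (-0.18), RFX4 (-0.16) and NR2E1 (-0.14).

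**Figure D5:**
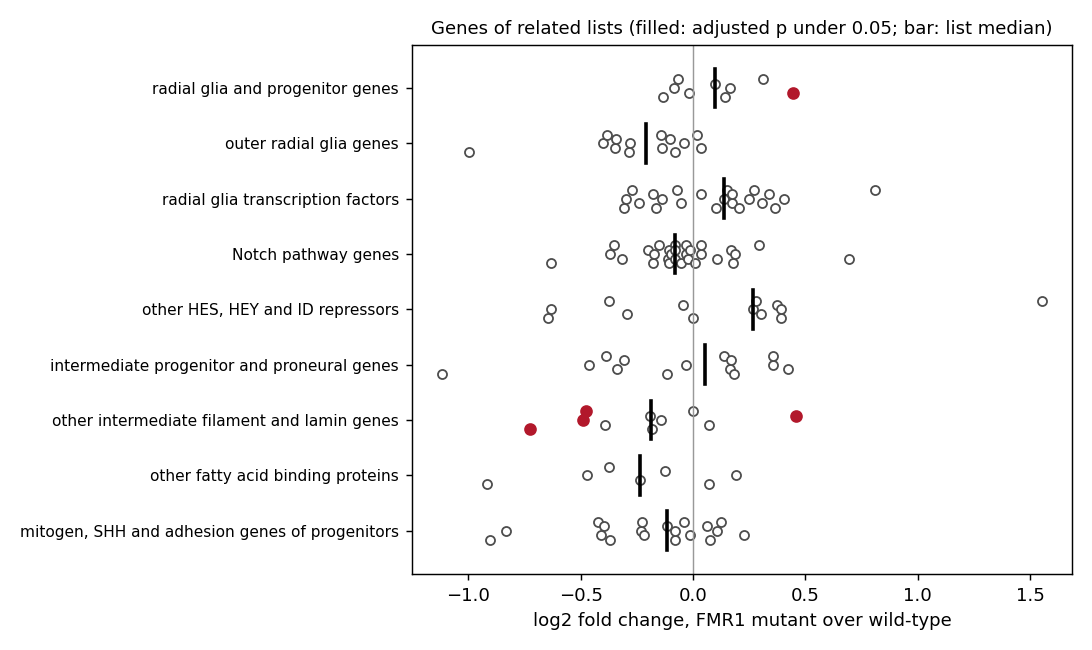
Log2 fold change (x axis, FMR1 mutant over wild-type) of every tested gene in the 9 radial glia and progenitor genes and in 8 related lists; filled red points passed an adjusted p of 0.05 and black bars are list medians. Outside VIM the filled points are the 4 neuronal filament genes INA, NEFL, NEFM and NEFH, and the outer radial glia list lies mostly below 0.

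No gene of the Notch pathway, which acts upstream of HES1 and HES5, passed. Of 30 listed genes 29 were tested and 0 passed by edgeR, with a median of -0.08. At an unadjusted p under 0.05 stood 2, both lower, against 13.4% of all genes. The receptors NOTCH1, NOTCH2 and NOTCH3 were at -0.15, -0.20 and -0.32, while the receptor NOTCH4 was at 0.17. The DNA-binding partner RBPJ was at 0.03. The coactivator MAML3 was at -0.63 (SE 0.20, adjusted p = 0.0998) and the feedback inhibitor NRARP at -0.37 (adjusted p = 0.255 by edgeR). MAML3 did not pass by DESeq2 (adjusted p = 0.409) or by limma-voom (0.123) either. It was counted 128 and 165 times in mutant and 252 and 185 times in wild-type libraries. Its highest value was thus in wild-type replicate 1, the library with high TCF7L2.

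The other HES, HEY and ID repressors were mixed, with 13 of 14 tested, 0 passing by edgeR and a median of 0.27. That median was 0.04 without FMR1 mutant replicate 1, 0.14 without wild-type replicate 1 and 0.27 without wild-type replicate 2. HES6, which promotes neuronal differentiation and opposes HES1, was counted 166 and 144 times in the mutant libraries, against 238 and 228 times in the wild-type libraries. The groups did not overlap, and its log2 fold change of -0.64 (SE 0.19) had an adjusted p of 0.0681 by edgeR. HES6 did not pass by DESeq2 (adjusted p = 0.298) or by limma-voom (0.0819). With no filter on low counts, where edgeR called 633 genes against 378, its adjusted p was 0.0434 by edgeR. ID2, an inhibitor of proneural factors, was at 266 ± 24.5 CPM in mutant and 205 ± 7.81 CPM in wild-type libraries (SD, n = 2 each), a log2 fold change of 0.37 (adjusted p = 0.0868 by edgeR). ID1 and ID3 were at 0.30 and 0.39, and ID4 at -0.0005.

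Genes of intermediate progenitors and of the proneural step gave a median of 0.05, with 7 of 14 tested above 0 and 7 below. By edgeR 0 passed, and the median was 0.16 without wild-type replicate 2. NEUROG1 was at 0 in every library. SMOC1 was at -0.31 (adjusted p = 0.222) and NEUROD1, a factor of newborn excitatory neurons, at 0.35 (adjusted p = 0.280 by edgeR).

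Genes of dividing cells, to which active progenitors belong, mostly had values below 0. Of 20 cell division genes with a row 18 were tested, 14 of them had a log2 fold change below 0, and the median was -0.34. MKI67, a nuclear protein of cycling cells, fell by 0.99 (SE 0.26, adjusted p = 0.0288 by edgeR) and was the single member to pass. It was counted 56 and 73 times in mutant and 120 and 126 times in wild-type libraries, and it also passed by limma-voom (adjusted p = 0.0443). MKI67 did not pass by DESeq2 (adjusted p = 0.187), nor by edgeR without FMR1 mutant replicate 1 (0.332), FMR1 mutant replicate 2 (0.0793) or wild-type replicate 2 (0.0878). PCNA, which is used in DNA replication and repair, was at 0.22 and TOP2A at -0.40, and neither passed (adjusted p = 0.577 and 0.393 by edgeR).

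Receptors and adhesion genes through which progenitors receive growth signals had a median of -0.12 over 19 tested, and 0 passed by edgeR. Without wild-type replicate 2 the median was -0.27. LEF1, a Wnt effector that is also on the thalamus list, was at -0.83 (adjusted p = 0.0802) and the growth factor receptor FGFR3, also an astrocyte marker, at -0.41 (adjusted p = 0.0968 by edgeR). LEF1 was counted 103 and 123 times in mutant and 259 and 131 times in wild-type libraries, so its value leaned on wild-type replicate 1, the library with high TCF7L2. The relatives of FABP7 were few and 0 of 7 tested passed by edgeR. Of these relatives FABP5 was at 0.19 and FABP3 at 0.07, while the list median was -0.24, with 2 above 0 and 5 below. That median was 0.06 without wild-type replicate 2.

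Other descendants of radial glia were followed by their marker lists. Of 13 genes of newborn and migrating neurons tested, 2 rose and 0 fell, with a median of 0.18, and 3 rose without wild-type replicate 1. The risers were CD24, a surface protein of young neurons (0.63, SE 0.13), and DCX, which binds microtubules in migrating neurons (0.50, SE 0.12), and neither passed without FMR1 mutant replicate 2 (adjusted p = 0.179 and 0.255 by edgeR) or without wild-type replicate 2 (0.169 and 0.286). CD24 also missed the threshold without FMR1 mutant replicate 1 (adjusted p = 0.235 by edgeR). Of 12 genes of oligodendrocyte precursors, 2 fell and 0 rose, with a median of -0.38. They were the lineage factor SOX10 (-0.56, SE 0.14) and the receptor GPR17 (-0.50, SE 0.12). SOX10 did not pass without FMR1 mutant replicate 2 (adjusted p = 0.214 by edgeR) or wild-type replicate 2 (0.0592), and GPR17 did not without FMR1 mutant replicate 1 (0.167) or wild-type replicate 2 (0.0763). All 12 genes of myelinating oligodendrocytes fell, with a median of -1.39, and all 12 did so whichever library was left out.

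Markers of other brain regions, of Cajal-Retzius and olfactory bulb cells and of blood were summed as a check on what the samples held. The thalamus markers summed to 294 and 266 CPM in mutant and 502 and 263 CPM in wild-type libraries, and 0 of 8 tested passed by edgeR, with a median of -0.74. Without wild-type replicate 2, which leaves the library with high TCF7L2 as the only wild-type one, 6 of the 8 fell (median -1.11), and without wild-type replicate 1 the median was -0.10 and 0 passed by edgeR. The hindbrain and cerebellum markers summed to 26.6 and 28.4 CPM in mutant and 49.0 and 29.7 CPM in wild-type libraries. Of the 3 tested, 2 fell without wild-type replicate 2 and 1 with all 4 libraries. CBLN1 fell by 1.01 on the log2 scale (adjusted p = 0.0333 by edgeR), and its value without wild-type replicate 1 was -0.50 (adjusted p = 0.557 by edgeR). CBLN1 also missed the threshold without FMR1 mutant replicate 1 (0.225), without FMR1 mutant replicate 2 (0.271) and by DESeq2 (0.175). Markers of Cajal-Retzius and olfactory bulb cells summed to 291 and 274 CPM in mutant and 317 and 271 CPM in wild-type libraries, and 0 of 5 tested passed by edgeR. Blood markers summed to 5.80 and 2.45 CPM in mutant and 2.56 and 2.77 CPM in wild-type libraries, with 0 of 2 tested passing by edgeR.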

How the data were processed

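The authors deposited raw counts, whole numbers for each gene. Trimmomatic 0.38 and STAR 2.7.10a are listed in the submitters' processing notes. The sources used here do not name the counter, strand setting, annotation or build. Poly(A) RNA was made into libraries with a directional kit, per the labels' protocols. Columns were matched to libraries by the names in the labels.

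edgeR 4.0.16 (R 4.3.3) was run with filterByExpr (minimum count 10), TMM scaling and the quasi-likelihood test (robust = TRUE), and p-values were adjusted by Benjamini-Hochberg across the 16956 genes kept, with 0.05 as the threshold. There were 2 residual degrees of freedom, beside a median of 31.6 prior degrees of freedom drawn from all genes. The p-values, SE and intervals of a gene thus rest mostly on variance pooled over genes. Fits with 1 library left out leave 1 in a group, and can lose a call while the fold change stays the same. Unless another tool is named, adjusted p is from this test. SE is the size of the log2 fold change divided by the square root of F. DESeq2 1.42.0 ran on all 35205 rows and limma-voom (limma 3.58.1) on the tested genes. The test was checked on simulated counts first.

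Replicates differed beyond sampling noise (chi-square per degree of freedom 6.90 in mutant and 7.28 in wild-type libraries). The 9 genes and all lists were chosen with earlier results of these data known. The genes named are the 9, FMR1, TCF7L2 and, from each list, the passing members of smallest p (at most 4) or, with fewer than 2 passing, the 2 of smallest unadjusted p. Other list members and TTR were added after their values were seen. Some genes that this rule names are not reported here. Transcript lengths and sequences were not used, so levels are not compared between genes. In RefSeq's annotation of calJac240_pri, another gene's span overlaps SOX2 (FXR1), PAX6 (ELP4), HES5 and HOPX, and how reads were shared is not stated.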

Additional observations from a re-analysis of the deposited data

How the results depend on the processing

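The count of changed genes was 378 (112 higher, 266 lower). It was 244 (164 lower) by DESeq2, 633 (194 higher, 439 lower) with no filter on low counts, and 163 (without FMR1 mutant replicate 1) to 562 (without wild-type replicate 2) with 1 library left out, 45 to 173 of them higher and 118 to 389 lower. VIM, the 1 member that rose, was at 0.45 by DESeq2, 0.44 by limma-voom and 0.44 with robust = FALSE, with 0 members called in each; with 1 library left out it ranged from 0.28 to 0.59, with 0 to 1 members called. RLE and upper quartile scaling, no low-count filter and a mean of at least 1 CPM kept the VIM call. No member was called lower in any setting. The members' median of 0.10 was 0.04 with a mean of at least 1 CPM, where EOMES is not tested, and -0.008 to 0.15 with 1 library left out. Over the same fits NES ranged from -0.109 to 0.075, SOX2 from -0.319 to 0.035, PAX6 from -0.047 to 0.31, HES1 from -0.24 to 0.12, HES5 from -0.38 to 0.27, FABP7 from -0.062 to 0.247 and EOMES from -0.03 to 0.37. FMR1 ranged from -0.022 to 0.53, MYH11 from -1.70 to 0.18, CLIC6 from -0.05 to 1.57, ZIC2 from -0.734 to 0.056, CDHR1 from -0.542 to 0.029, ALAS2 from -0.15 to 1.58 and CD8A from -0.014 to 0.728. Of the pathway list genes 1 rose and 3 fell; 7 fell with no low-count filter, and 0 to 2 rose and 0 to 10 fell with 1 library left out. Of the cell type markers 2 rose and 22 fell; 0 to 3 rose and 16 to 28 fell with 1 library left out. The causes were not tested.

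Same-numbered libraries did not deviate together (correlation over genes 0.02). A single difference in each group cannot show whether the replicate numbers pair the libraries, and the labels name no pairing. With the replicate number as a block, VIM was at 0.44 (adjusted p = 0.0401 by edgeR), and 493 genes were called.

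Promoter motifs were not analysed here. Depth limits EOMES most, with 10 to 16 counts a library.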
